A study of Rattus norvegicus with 18 samples.

Results

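The 50 cell cycle genes described here run from G1 entry to the end of mitosis, and they were read on one-colour Agilent arrays of rat hepatocytes kept in culture. Members were chosen by gene symbol: a probe counted for a member when the accession in the scanner file, without its version, mapped to that symbol, and the brightest probe of each gene was used. By this rule 44 of the 50 members had a named probe. Of these, 38 passed the filter for dim probes, beside 21574 genes in all that passed it. Mcm5, Cdc25c, Plk4, Melk, Cenpe and Top2a had no named probe and are not analysed here.

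The study, whose title names the compounds as p-dialkoxy chlorobenzenes, asks what they do to rat liver cells. Primary hepatocytes came from male Sprague Dawley rats and had been cryopreserved; a preculture of 24 h was followed by 24 h with DDMB, DDEB, CDMB or CDEB, each at 300 µM, or with DMSO. There were 3 arrays per group and 18 arrays in all: DDMB, CDMB and CDEB are set against the DMSO group VC_1, and DDEB against the DMSO group VC_2, because the submitters used different chip lots. The design text speaks of independent experiments but does not say whether these were cells of different animals, so the p-values below measure the spread between these cultures. All groups share the cryopreserved cells, the medium and the preculture, and no group of untreated cells without DMSO is among them. The labelled cell type was checked against 15 hepatocyte markers, and all 15, albumin among them, lay well above background on all 18 arrays.

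Cell cycle genes come on in waves. D and E cyclins with their kinases release E2F factors, which switch on the genes of origin licensing, the replication fork and nucleotide supply. Later the cyclins A and B, Cdk1, the Plk and Aurora kinases, the kinetochore, the spindle and the ubiquitin ligase that ends mitosis follow, many of them controlled through CHR and CCAAT boxes in their promoters. Adult hepatocytes are mostly quiescent, and in culture they can pass into G1 while few of them divide. Here a level is the log2 of the processed signal minus the 75th percentile of the same array, so 0 is the signal at that percentile; levels of different probes are not set against each other.

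The promoters of a few members are shown because these genes move together between single arrays in the results that follow. A further reason is that some roles within the 2 waves differ in how often they hold E2F and CHR words. RefSeq promoter windows of build GRCr8, each of 300 bases, matched 39 of the 50 members; Ccnd1, Ccne2, E2f1, Cdc6, Mcm4, Rrm2, Ccna2, Aurkb, Foxm1, Tpx2 and Ube2c had no entry. The words searched on both strands were the E2F words TTTCCCGC, TTTGGCGC, TTTCGCGC, TTTGCCGC, TTCCCGCC and TTGGCGCC, some of which overlap each other, the CHR word TTTGAA and the word CCAAT. Capitals mark every match to any of them. Mcm3 and Mcm6, which encode subunits of the replicative helicase, are given first (chr9:30733697-30733996 on the minus strand and chr13:42404303-42404602 on the minus strand).
Mcm3: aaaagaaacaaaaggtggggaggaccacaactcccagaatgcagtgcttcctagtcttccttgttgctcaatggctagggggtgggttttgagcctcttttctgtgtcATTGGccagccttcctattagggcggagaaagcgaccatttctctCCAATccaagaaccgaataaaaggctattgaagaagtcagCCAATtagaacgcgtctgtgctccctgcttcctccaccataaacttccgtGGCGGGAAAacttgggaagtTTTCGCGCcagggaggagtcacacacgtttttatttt
Mcm6: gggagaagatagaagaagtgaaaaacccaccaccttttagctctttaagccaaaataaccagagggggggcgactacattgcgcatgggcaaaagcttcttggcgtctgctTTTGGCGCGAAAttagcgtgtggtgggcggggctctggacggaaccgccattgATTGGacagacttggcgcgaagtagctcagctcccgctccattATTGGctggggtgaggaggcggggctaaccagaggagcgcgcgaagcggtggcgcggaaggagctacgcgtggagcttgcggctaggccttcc
The next ones belong to mitosis. They are Cdk1, the kinase that drives entry into mitosis (chr20:19265043-19265342 on the plus strand), Ccnb2, one of its B cyclins (chr8:79981609-79981908 on the minus strand), Prc1, which bundles microtubules of the midzone (chr1:143659231-143659530 on the plus strand), and Cdca3, a factor for turnover of a mitotic inhibitor (chr4:159320953-159321252 on the plus strand).
Cdk1: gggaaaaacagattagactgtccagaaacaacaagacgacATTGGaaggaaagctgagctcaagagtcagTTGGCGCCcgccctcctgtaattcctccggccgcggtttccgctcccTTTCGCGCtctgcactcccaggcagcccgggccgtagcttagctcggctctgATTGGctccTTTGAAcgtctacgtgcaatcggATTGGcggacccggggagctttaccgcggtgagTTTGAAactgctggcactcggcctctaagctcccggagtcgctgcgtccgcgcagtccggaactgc
Ccnb2: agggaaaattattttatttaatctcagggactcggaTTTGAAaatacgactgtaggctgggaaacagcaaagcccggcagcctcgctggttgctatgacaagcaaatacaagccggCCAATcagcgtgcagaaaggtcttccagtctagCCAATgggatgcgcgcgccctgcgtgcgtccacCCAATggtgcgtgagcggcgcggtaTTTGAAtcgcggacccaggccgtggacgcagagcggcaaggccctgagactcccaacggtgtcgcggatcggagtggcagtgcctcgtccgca
Prc1: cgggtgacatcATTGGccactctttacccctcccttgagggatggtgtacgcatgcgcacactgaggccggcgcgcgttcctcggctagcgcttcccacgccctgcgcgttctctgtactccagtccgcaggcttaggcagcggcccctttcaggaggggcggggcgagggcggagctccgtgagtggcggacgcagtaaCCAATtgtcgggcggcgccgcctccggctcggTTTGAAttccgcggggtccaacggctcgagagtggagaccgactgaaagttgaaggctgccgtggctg
Cdca3: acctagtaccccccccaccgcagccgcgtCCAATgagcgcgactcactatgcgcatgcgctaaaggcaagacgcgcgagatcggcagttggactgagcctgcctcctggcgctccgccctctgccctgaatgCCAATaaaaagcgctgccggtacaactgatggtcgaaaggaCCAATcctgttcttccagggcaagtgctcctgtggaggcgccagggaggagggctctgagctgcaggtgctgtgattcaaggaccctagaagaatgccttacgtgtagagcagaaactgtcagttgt

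An E2F word was found in 10 of the 39 members with a window (25.6%), against 4.07% of all 33469 windows. Of the licensing and fork genes 6 of 7 held one, and of the kinetochore, spindle and ubiquitin ligase genes none did (0 of 7, 0 of 6 and 0 of 2). The split did not follow the waves throughout. An E2F word was in 2 of 3 nucleotide supply genes but 0 of 2 G1 and S entry genes. Of the later roles, 2 of 10 G2 and M genes and 0 of 2 chromosome genes held one. Cdca3 was listed with the ubiquitin ligase genes. The CHR word was in 17 members (43.6%, against 18.3% of all windows) and CCAAT in 28 (71.8%, against 37.5%). CHR was in 1 of 7 licensing and fork genes, 6 of 10 G2 and M genes and 5 of 7 kinetochore genes. It was in 2 of 6 spindle genes, 1 of 2 ubiquitin ligase genes and 2 of 2 chromosome genes. For G1 and S entry and nucleotide supply it was in 0 of 2 and 0 of 3. CCAAT did not differ in this way between licensing and fork, G2 and M, and kinetochore genes, with 5 of 7, 7 of 10 and 5 of 7. Both stood in 14 members (35.9%, against 7.41%), among them Cdk1, Ccnb2 and Prc1 above. Cdk1 held 2 E2F words as well. Cdca3 held CCAAT 3 times and no CHR word in its window. A match is a description of these letters only.

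The spread between arrays of one group was the first thing the members showed. On the DDEB arrays the median SD of the 38 members was 0.503 (log2), against 0.188 over all genes. The DDMB arrays gave 0.263 for the members and 0.136 for all genes, the VC_1 arrays 0.43 and 0.148, and the VC_2 arrays 0.379 and 0.141. In CDMB and CDEB the members were close to all genes, with 0.127 against 0.0949 in CDMB and 0.0757 against 0.0743 in CDEB. Of the 38 members, 29 in DDMB, 30 in DDEB, 23 in CDMB and 20 in CDEB had an SD above the median of all genes, as did 33 in VC_1 and 29 in VC_2.

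**Figure D1:**
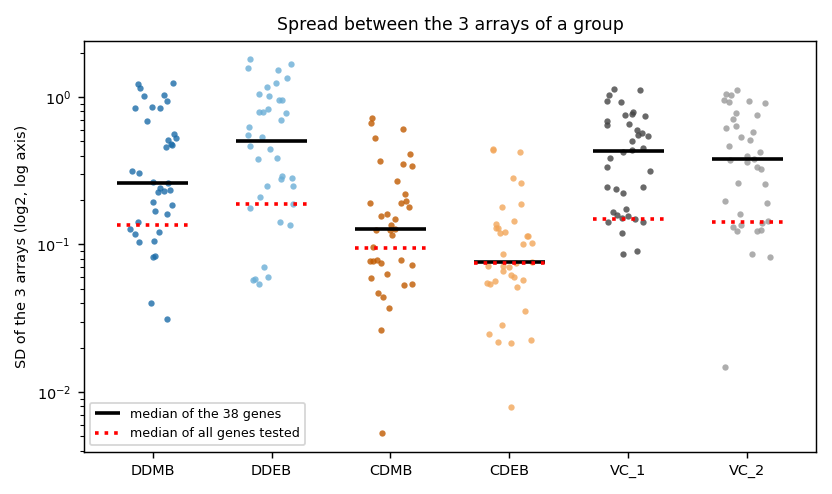
SD of the 3 arrays of each group (log2, on a log axis) for 38 cell cycle genes (points), with their median (black line) and the median of all genes tested (dotted red line). The black line lies at 0.503 for DDEB and 0.0757 for CDEB, against dotted lines at 0.188 and 0.0743.

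In 4 groups a single array held most of this spread. The mean level of the members was -1.81, -1.09 and -1.61 on DDMB replicates 1 to 3, and -1.93, -1.64 and -0.75 on DDEB replicates 1 to 3. It was -1.58, -1.84 and -1.80 on the CDMB arrays and -1.76, -1.79 and -1.76 on the CDEB arrays, against -1.57, -1.49 and -0.81 on the VC_1 arrays and -1.64, -1.46 and -0.88 on the VC_2 arrays. DDMB replicate 2, DDEB replicate 3, VC_1 replicate 3 and VC_2 replicate 3 therefore stood above the other arrays of their groups. DDMB replicate 2 was the highest array of its group for 30 of 38 members (78.9%, against 32.5% of all genes), and DDEB replicate 3 for 35 (92.1%, against 45.1%). VC_1 replicate 3 was highest for 34 members (89.5%, against 37.7%) and VC_2 replicate 3 for 32 (84.2%, against 38.3%). Ccne2, Tk1, Ccnf and Aurka were the exceptions on VC_1 replicate 3, and the same genes with Cdk2 and Cdca8 on VC_2 replicate 3.

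**Figure D2:**
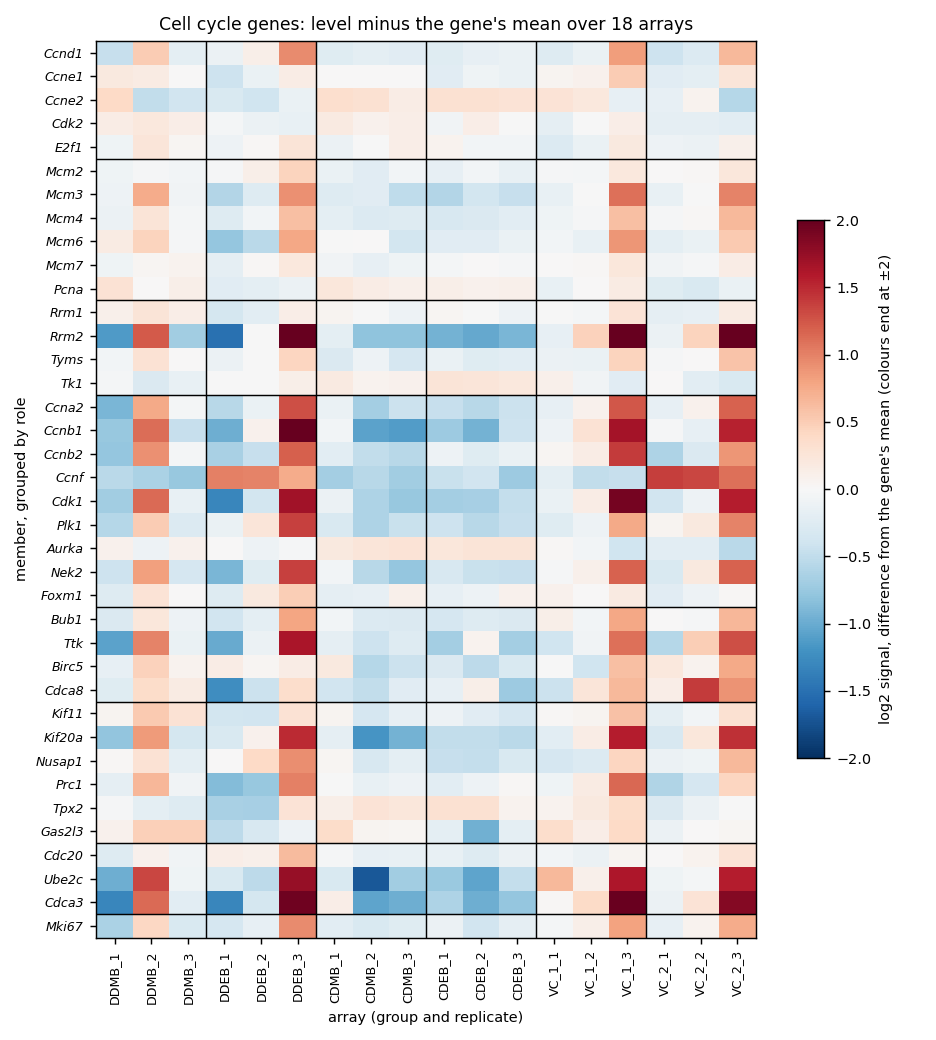
Level of each of the 38 members (rows, grouped by role) on each of the 18 arrays (columns) minus the gene's own mean over all arrays, in log2 units; colours end at 2 in both directions. DDMB_2, DDEB_3, VC_1_3 and VC_2_3 are red in most rows, and the 6 CDMB and CDEB columns are mostly pale blue.

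Some markers of the hepatocyte and of other liver cells moved between the same arrays, and those of one cell type did not move one way. The mean log2 level of the 15 hepatocyte markers was 5.25 on DDMB replicate 2, 5.23 on DDEB replicate 3, 4.95 on VC_1 replicate 3 and 4.97 on VC_2 replicate 3, and between 5.43 and 5.69 on the other 14 arrays. Single hepatocyte markers differed. Cps1 was lowest of its group on each of these high arrays, at 2.62, 2.07, 1.72 and 1.79. Cyp2c11 was instead highest on replicate 3 of DDEB, VC_1 and VC_2, at 3.69, 4.44 and 4.25, and intermediate on DDMB replicate 2, at 3.17. Cd68, a lysosomal protein of macrophages, lay at 2.08, -1.18 and 0.04 on the DDMB arrays and 2.04, 1.43 and -0.47 on the DDEB arrays, against 2.10, 1.57 and -0.95 on the VC_1 arrays and 2.38, 1.85 and -0.59 on the VC_2 arrays. Lyz2, a lysozyme gene on the same list, lay instead at 3.37, 3.64 and 3.74 on the DDMB arrays and 3.15, 3.30 and 3.16 on the DDEB arrays, against 3.17, 3.15 and 3.32 on the VC_1 arrays and 3.09, 3.05 and 3.23 on the VC_2 arrays, so it was highest on replicate 3 of both DMSO groups, where Cd68 was lowest. Adgre1, another macrophage marker, was well above background on 1 of 18 arrays and highest on DDMB replicate 2. Col1a1, a collagen gene of stellate cells and fibroblasts, was well above background on 5 of 18 arrays and stood at -2.57 on VC_1 replicate 3 and -2.65 on VC_2 replicate 3. On the other DMSO arrays it was not well above background (-7.93 to -7.05). It lay at -5.86, -4.45 and -4.75 on the DDMB arrays and -4.67, -5.18 and -5.12 on the DDEB arrays, so DDEB replicate 3 was not its highest. Dcn, decorin of the same cells, was lowest of its group on DDEB replicate 3 at -3.54, VC_1 replicate 3 at -3.81 and VC_2 replicate 3 at -4.09. Pdgfrb, a growth factor receptor of these cells, was lowest there too, at -3.55, -3.36 and -4.02. Col1a2, a collagen gene well above background on all 18 arrays, was instead highest of its group on the high arrays. It lay at -0.14 on DDMB replicate 2, 0.15 on DDEB replicate 3, -0.01 on VC_1 replicate 3 and 0.24 on VC_2 replicate 3. Epcam, a biliary marker, was highest there as well, at 2.21, 2.19, 2.27 and 2.13. Sox9, also biliary, went both ways. It was lowest of its group on DDEB replicate 3 and VC_1 replicate 3, at -2.11 and -2.17. On DDMB replicate 2 and VC_2 replicate 3 it was highest of its group, at -2 and -1.55. Its VC_1 arrays lay close together, between -2.17 and -2.09.

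Over whole marker lists, given as the sum of linear levels, the 11 stellate cell and fibroblast markers summed to 1.44 to 2.15 in DDMB, 1.59 to 2.12 in DDEB, 1.26 to 1.34 in CDMB and 1.48 to 1.69 in CDEB, against 1.34 to 2.15 in VC_1 and 1.52 to 2.33 in VC_2; Lrat and Lum were on no array well above background. The 8 measured Kupffer cell and macrophage markers summed to 13.1 to 14.7 in DDMB, 9.72 to 13.1 in DDEB, 12.9 to 13.9 in CDMB and 12.2 to 12.9 in CDEB, against 10.5 to 13.4 in VC_1 and 10.1 to 13.9 in VC_2, with Csf1r, Ptprc and Cd163 on no array well above background. For 6 biliary markers the sums were 3.02 to 4.95 in DDMB, 3.61 to 4.89 in DDEB, 3.03 to 3.18 in CDMB and 3.06 to 3.17 in CDEB, against 3.35 to 5.11 in VC_1 and 3.24 to 4.80 in VC_2. On DDMB replicate 2, DDEB replicate 3, VC_1 replicate 3 and VC_2 replicate 3 the stellate cell sum was highest of its group (2.15, 2.12, 2.15 and 2.33). The biliary sum was highest there too (4.95, 4.89, 5.11 and 4.80), and the macrophage sum was lowest (13.1, 9.72, 10.5 and 10.1). The 6 measured endothelial markers summed to 0.157 to 0.183 in DDMB, 0.251 to 0.313 in DDEB, 0.171 to 0.203 in CDMB and 0.19 to 0.194 in CDEB, against 0.193 to 0.198 in VC_1 and 0.281 to 0.294 in VC_2, with Tek and Lyve1 on no array well above background. The 75th percentile of the raw signal was 634 on DDMB replicate 2, 654 on VC_1 replicate 3 and 644 on VC_2 replicate 3, between 468 and 585 on the other arrays of the 18 except DDEB replicate 3, and lowest on that array at 430. How far these markers account for the members' levels was not tested, and in bulk RNA fewer cells of a type and less RNA per cell cannot be told apart.

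The DMSO arrays of the 2 lots resembled each other by number. After the mean difference between VC_2 and VC_1 was taken out per gene, the median absolute difference of the 38 members was 0.0458, 0.0393 and 0.0454 (log2) between arrays with the same number. Between arrays with different numbers it was 0.116 to 0.691. Over all genes the values were 0.0408 to 0.0487 for the same number and 0.0934 to 0.222 for different numbers. The labels do not say whether VC_1 and VC_2 arrays of one number carry the same RNA. The high replicate 3 of VC_1 and that of VC_2 are not shown to be separate observations.

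**Figure D3:**
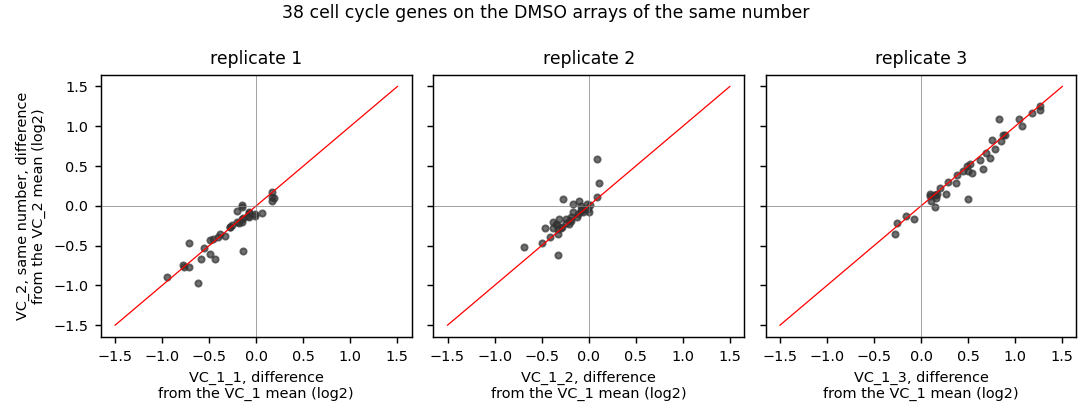
Difference of each of the 38 members from its group mean (log2) on a VC_2 array (vertical axis) and on the VC_1 array of the same number (horizontal axis), one panel per number, with the line of equality in red. Points lie near the line in all 3 panels; most are above 0 on both axes for number 3.

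Against their own controls none of the 38 members passed the test over all genes (limma, adjusted p under 0.05, n = 3 per group). For DDMB this was 0 of 38, where 0.556% of all genes were called; the smallest adjusted p of a member in limma was 0.403. DDEB likewise gave 0 of 38 members, with 0.987% of all genes called and a smallest adjusted p of 0.16 in limma. For CDMB the count was 0 of 38 and 0.0417% of all genes were called (smallest adjusted p 0.205 in limma), and for CDEB 0 of 38 and 0.134% of all genes (smallest adjusted p 0.152 in limma). With an unadjusted limma p under 0.05, 1 member was higher and 1 lower with DDMB (5.68% and 4.22% of all genes), and 1 was higher and 2 lower with DDEB (9.53% and 5.66%). With CDMB 1 was higher and 3 lower (6.82% and 6.45% of all genes), and with CDEB 2 were higher and 4 lower (7.49% and 5.81%). The fits without VC_1 replicate 3 gave 0 of 38 members for DDMB, CDMB and CDEB (0.371%, 0% and 0.0232% of all genes). A fit with array weights, whose estimation did not converge, passed 24 members with DDMB, 14 with DDEB, 12 with CDMB and 19 with CDEB, but also 74.6%, 41.1%, 26% and 39.6% of all genes.

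The members still sat lower than all genes as a list in the CDMB and CDEB groups, by counts and median without a test of the list. Their median log2 change was -0.13 with DDMB, -0.07 with DDEB, -0.36 with CDMB and -0.43 with CDEB, where the median of all genes was at most 0.0167. A change below 0 was found for 28 of 38 members with DDMB (46.5% of all genes), 25 with DDEB (46.4%), 32 with CDMB (47.4%) and 31 with CDEB (48.1%). Without VC_1 replicate 3 the counts below 0 were 17 of 38 with DDMB (48.9% of all genes), 30 with CDMB (50.5%) and 30 with CDEB (49.4%), and the medians came to 0.04 with DDMB, -0.12 with CDMB and -0.17 with CDEB. The DDMB median was then above 0, and those of CDMB and CDEB stayed below 0 at a smaller size. Without both DDEB replicate 3 and VC_2 replicate 3 the DDEB median was -0.18, without DDEB replicate 3 alone -0.38, and without VC_2 replicate 3 alone 0.12. CDMB and CDEB arrays lie on a slide of their own, so for them the effects of compound and of slide cannot be told apart, while DDMB shares its slide with VC_1.

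**Figure D4:**
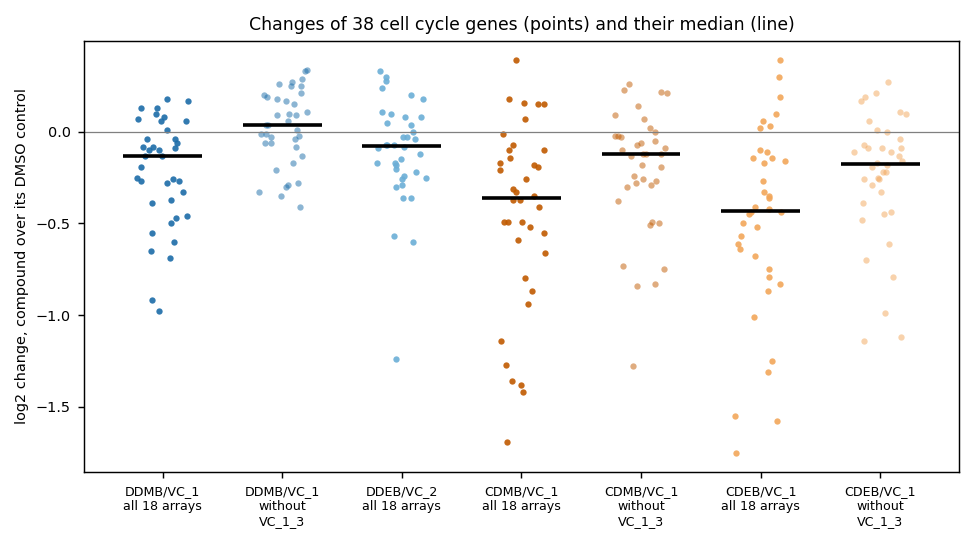
Log2 change of each of the 38 members (points) for each compound over its DMSO control, from the fit of all 18 arrays and, for the comparisons with VC_1, from the fit without VC_1 replicate 3; black lines are medians. The medians with all arrays are -0.13, -0.07, -0.36 and -0.43 for DDMB, DDEB, CDMB and CDEB.

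A second count asked for members whose 3 treated arrays all lay on one side of all 3 DMSO arrays. With CDMB 13 members lay wholly below VC_1 (34.2%, against 12.5% of all genes) and with CDEB 20 (52.6%, against 13.5%). With DDMB 2 members, Ccnf and Tpx2, lay wholly below (5.61% of all genes), and with DDEB only Ccnf (6% of all genes). In CDMB these were Bub1, Ccnb2, Ccne1, Ccnf, Mcm2, Mcm3, Mcm4, Mcm7, Mki67, Nek2, Plk1, Rrm2 and Ube2c. In CDEB they were Bub1, Ccna2, Ccnb1, Ccnb2, Ccne1, Cdca3, Cdk1, Gas2l3, Kif11, Kif20a, Mcm2, Mcm3, Mcm4, Mcm7, Mki67, Nek2, Plk1, Rrm2, Tyms and Ube2c. Above all VC_1 arrays lay Cdk2 with DDMB (8.55% of all genes), Aurka with CDMB (13%), and Aurka, Ccne2 and Tk1 with CDEB (15.8%), and above all VC_2 arrays Aurka and Cdk2 with DDEB (10.5%). Leaving out a control array can only keep or add members in these counts, so the following numbers are no check of them. Without VC_1 replicate 3, 2 members lay below with DDMB (13.9% of all genes), 13 with CDMB (17.4%) and 20 with CDEB (19.4%). Above lay 7 with DDMB (16.4% of all genes), 4 with CDMB (16.8%) and 5 with CDEB (20.4%). CDMB and CDEB share the VC_1 arrays, so their counts are not independent of each other.

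Among the genes of G1 and S entry the changes ran both ways. They lay between -0.27 and 0.18 with DDMB, -0.07 and 0.33 with DDEB, -0.37 and 0.16 with CDMB, and -0.36 and 0.19 with CDEB. Ccnd1, the D cyclin that links growth signals to the cycle, read 0.64, 1.62 and 0.92 on the DDMB arrays, 0.86, 0.91 and 0.88 on the CDMB arrays and 0.87, 0.94 and 0.97 on the CDEB arrays, against 0.85, 0.97 and 1.94 on the VC_1 arrays. On the other lot it read 0.99, 1.23 and 2.06 on the DDEB arrays, against 0.70, 0.83 and 1.76 on the VC_2 arrays. DDMB replicate 2, DDEB replicate 3 and replicate 3 of both DMSO groups were the high ones, and the groups overlapped. With CDMB and CDEB the 6 arrays lay between 0.86 and 0.97, inside the range of VC_1. The log2 change was 0.33 ± 0.349 (SE) with DDEB, the highest of the 38 members there, and did not pass (adjusted p 0.699 in limma). With CDMB and CDEB it was -0.37 and -0.33, or -0.03 and 0.01 without VC_1 replicate 3.

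Ccne2, an E cyclin that activates Cdk2 at the start of S phase, read -0.65, -1.54 and -1.43 on the DDMB arrays, -0.71, -0.74 and -0.89 on the CDMB arrays and -0.73, -0.74 and -0.77 on the CDEB arrays, against -0.77, -0.83 and -1.21 on the VC_1 arrays. For DDEB the levels were -1.35, -1.44 and -1.18 on the DDEB arrays, against -1.20, -0.97 and -1.61 on the VC_2 arrays. Replicate 3 was the lowest of its group in VC_1 and VC_2 but the highest in DDEB. The CDEB arrays all lay above VC_1, but the lowest of them and the highest VC_1 array both round to -0.77. Cdk2 itself read -0.88, -0.82 and -0.89 on the DDMB arrays, -0.85, -0.94 and -0.90 on the CDMB arrays and -1.1, -0.90 and -1.04 on the CDEB arrays, against -1.20, -1.03 and -0.90 on the VC_1 arrays, and -1.07, -1.15 and -1.18 on the DDEB arrays, against -1.20, -1.20 and -1.23 on the VC_2 arrays. Its change with DDMB was 0.18 ± 0.0741 (SE, adjusted p 0.403 in limma), the highest of the 38 with that compound. E2f1, an activating E2F factor, had changes of 0.06 to 0.13 in the 4 comparisons and overlapped its control in each: it read -1.45, -1.13 and -1.33 on the DDMB arrays, -1.49, -1.37 and -1.24 on the CDMB arrays and -1.30, -1.42 and -1.42 on the CDEB arrays, against -1.64, -1.5 and -1.17 on the VC_1 arrays, and -1.46, -1.34 and -1.11 on the DDEB arrays, against -1.47, -1.49 and -1.26 on the VC_2 arrays. Ccne1, the other E cyclin, lay between -0.20 and -0.06 with CDEB, against 0.08 to 0.52 in VC_1, and its change was -0.36 ± 0.152 (SE, adjusted p 0.336 in limma), and -0.22 ± 0.152 without VC_1 replicate 3.

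None of the 6 licensing and fork genes that passed the filter was called, and 4 of them lay wholly below VC_1 both with CDMB (12.5% of all genes) and with CDEB (13.5%). Pcna, the sliding clamp of DNA polymerase, read 2.45, 2.17 and 2.27 on the DDMB arrays, 2.38, 2.30 and 2.26 on the CDMB arrays and 2.27, 2.25 and 2.26 on the CDEB arrays, against 2.01, 2.17 and 2.32 on the VC_1 arrays. For DDEB it read 1.93, 1.96 and 2.04 on the DDEB arrays, against 1.91, 1.85 and 2.02 on the VC_2 arrays. Its changes of 0.05 to 0.15 did not pass in any comparison. Mcm2 and Mcm7 encode further helicase subunits. Mcm2 read 1.69, 1.75 and 1.71 on the DDMB arrays, 1.64, 1.55 and 1.71 on the CDMB arrays and 1.60, 1.71 and 1.62 on the CDEB arrays, against 1.74, 1.73 and 1.98 on the VC_1 arrays, and 1.74, 1.89 and 2.22 on the DDEB arrays, against 1.77, 1.79 and 2 on the VC_2 arrays. Mcm3 spread more widely, with -0.42, 0.42 and -0.38 on the DDMB arrays, -0.58, -0.55 and -0.83 on the CDMB arrays and -0.91, -0.68 and -0.77 on the CDEB arrays, against -0.46, -0.32 and 0.79 on the VC_1 arrays, and -0.91, -0.58 and 0.60 on the DDEB arrays, against -0.46, -0.33 and 0.67 on the VC_2 arrays. All CDMB and CDEB arrays of Mcm3 lay below all VC_1 arrays, and its changes were -0.66 ± 0.41 with CDMB and -0.79 ± 0.41 with CDEB (SE, adjusted p 0.489 and 0.418 in limma). Without VC_1 replicate 3 they were -0.26 ± 0.408 and -0.39 ± 0.408. The promoter of Mcm3 shown above holds 3 E2F matches, of which 2 overlap. A second, dim probe of Mcm3 gave a change of the opposite sign with CDMB. Mcm4, Mcm6 and Mcm7 had changes between -0.44 and -0.11 with CDMB and CDEB, and between -0.25 and 0.00 with DDMB and DDEB. Theirs lay between -0.22 and -0.02 with CDMB and CDEB when VC_1 replicate 3 was left out. Cdc6 and Cdt1, which load the helicase, were well above background on 2 and 1 of 18 arrays and were not tested.

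Among the genes of nucleotide supply Rrm2 held the widest spread on the DMSO arrays of the 38 members that passed the filter. Rrm2, the regulatory subunit of ribonucleotide reductase that limits dNTP supply in S phase, read -2.34, 0.02 and -1.90 on the DDMB arrays, -1.41, -2.01 and -2.02 on the CDMB arrays and -2.16, -2.24 and -2.13 on the CDEB arrays, against -1.37, -0.75 and 0.84 on the VC_1 arrays. On the lot of DDEB it read -2.71, -1.22 and 0.87 on the DDEB arrays, against -1.32, -0.77 and 0.83 on the VC_2 arrays. Replicate 3 was high in both control groups, and CDEB stayed within 0.11 of itself across 3 arrays, below every VC_1 array. The changes were -1.38 ± 0.846 with CDMB and -1.75 ± 0.846 with CDEB (SE; adjusted p 0.48 and 0.392 in limma). Without VC_1 replicate 3 they were -0.75 ± 0.899 and -1.12 ± 0.899. Rrm1, the large subunit, and Tyms, thymidylate synthase, differed less: Rrm1 read 1.97, 2.13 and 2.01 on the DDMB arrays, 1.93, 1.86 and 1.77 on the CDMB arrays and 1.92, 1.86 and 1.77 on the CDEB arrays, against 1.87, 1.84 and 2.15 on the VC_1 arrays, and 1.53, 1.67 and 2.01 on the DDEB arrays, against 1.69, 1.71 and 2.04 on the VC_2 arrays. Tk1, thymidine kinase of the salvage pathway, read 1.29, 1.04 and 1.18 on the DDMB arrays, 1.51, 1.39 and 1.41 on the CDMB arrays and 1.58, 1.56 and 1.53 on the CDEB arrays, against 1.43, 1.26 and 1.1 on the VC_1 arrays, and 1.32, 1.31 and 1.44 on the DDEB arrays, against 1.33, 1.11 and 1.02 on the VC_2 arrays. Replicate 3 was the lowest of VC_1 and of VC_2 and the highest of DDEB. Every CDEB array of Tk1 lay above every VC_1 array, with a change of 0.30 ± 0.0962 (SE, adjusted p 0.232 in limma).

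**Figure D5:**
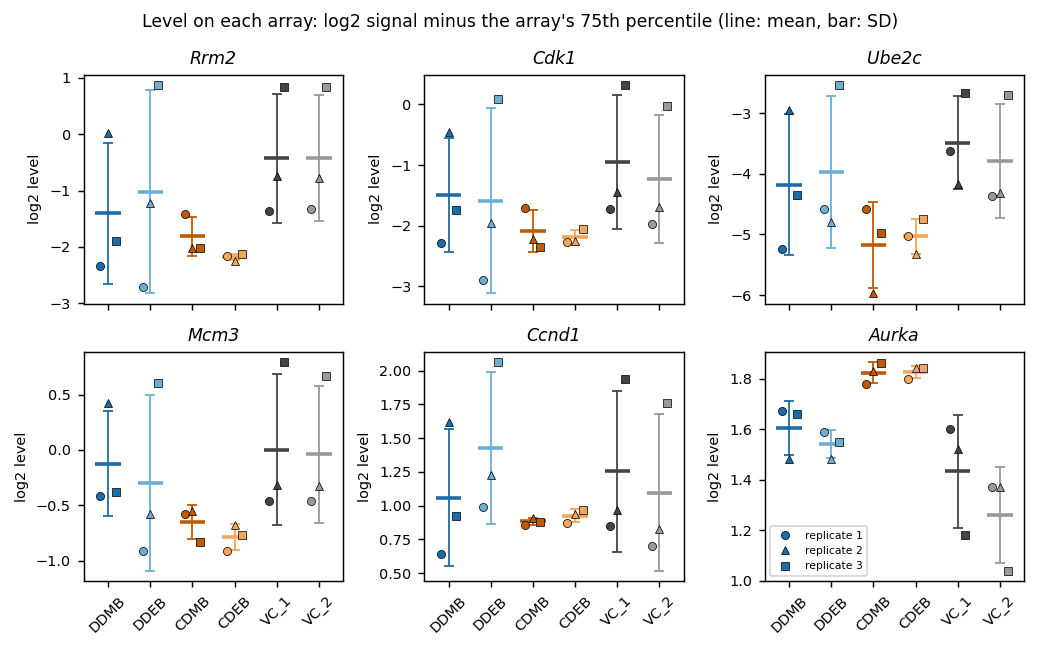
Level on each array (log2 signal minus the array's 75th percentile) for 6 members, with the mean (line) and SD (bar) of the 3 arrays of each group; symbols mark replicates. Rrm2, Cdk1, Ube2c, Mcm3 and Ccnd1 have 1 high array in DDMB, DDEB, VC_1 and VC_2, Aurka is lowest on replicate 3 of VC_1 and of VC_2, and CDEB is narrow in each.

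The cyclins and kinases of G2 and mitosis gave larger differences and larger errors. Cdk1 read -2.28, -0.46 and -1.74 on the DDMB arrays, -1.70, -2.21 and -2.35 on the CDMB arrays and -2.27, -2.25 and -2.06 on the CDEB arrays, against -1.72, -1.44 and 0.32 on the VC_1 arrays. On the DDEB lot it read -2.89, -1.96 and 0.09 on the DDEB arrays, against -1.97, -1.69 and -0.02 on the VC_2 arrays. DDEB replicate 3, VC_1 replicate 3 and VC_2 replicate 3 lay between -0.02 and 0.32, more than 1 log2 unit above the other arrays of their groups, as did DDMB replicate 2 within DDMB. Its change was -1.25 ± 0.738 with CDEB (SE, 95% interval -2.85 to 0.36, adjusted p 0.475 in limma), and -0.61 ± 0.76 without VC_1 replicate 3. Ccnb1, the B cyclin that pairs with Cdk1, read -4.83, -2.95 and -4.53 on the DDMB arrays, -4.12, -5.14 and -5.19 on the CDMB arrays and -4.79, -5.01 and -4.49 on the CDEB arrays, against -4.17, -3.78 and -2.41 on the VC_1 arrays, and -5.04, -3.98 and -1.94 on the DDEB arrays, against -4.09, -4.24 and -2.53 on the VC_2 arrays, with DDEB replicate 1 not well above background. The CDEB arrays lay below all VC_1 arrays, and CDMB replicate 1 overlapped. Its changes were -1.36 ± 0.738 with CDMB and -1.31 ± 0.738 with CDEB (SE), and -0.84 ± 0.792 and -0.79 ± 0.792 without VC_1 replicate 3. Ccna2, an A cyclin, Ccnb2, the Polo kinase Plk1 and the centrosome kinase Nek2 had changes of -0.94 to -0.59 in these comparisons, and their adjusted p lay between 0.449 and 0.575 in limma; without VC_1 replicate 3 the changes were -0.50 to -0.25. Foxm1, the transcription factor of the G2 wave, read -2.18, -1.64 and -1.90 on the DDMB arrays, -2.09, -2.08 and -1.82 on the CDMB arrays and -2.08, -2.02 and -1.83 on the CDEB arrays, against -1.83, -1.90 and -1.73 on the VC_1 arrays, and -2.18, -1.72 and -1.42 on the DDEB arrays, against -2.14, -2.01 and -1.89 on the VC_2 arrays. Its change was highest with DDEB, at 0.24 ± 0.168 (SE, adjusted p 0.53 in limma).

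Aurka and Ccnf, in the same group, did not follow the others. Aurka, the Aurora kinase of the spindle poles, read 1.67, 1.48 and 1.66 on the DDMB arrays, 1.78, 1.83 and 1.86 on the CDMB arrays and 1.80, 1.84 and 1.84 on the CDEB arrays, against 1.60, 1.52 and 1.18 on the VC_1 arrays. For DDEB the levels were 1.59, 1.48 and 1.55 on the DDEB arrays, against 1.37, 1.37 and 1.04 on the VC_2 arrays. All CDMB and CDEB arrays exceeded all VC_1 arrays, with changes of 0.39 ± 0.107 and 0.39 ± 0.107 (SE; adjusted p 0.205 and 0.176 in limma), the highest of the 38 members in both comparisons. A second probe of Aurka, for another transcript accession, ran opposite in all 4 comparisons: it lay at -0.46, -0.54 and -0.56 on the CDMB arrays and -0.54, -0.55 and -0.63 on the CDEB arrays, against -0.60, -0.52 and 0.02 on the VC_1 arrays. The direction for Aurka thus depends on the probe. Ccnf, an F-box cyclin of a ubiquitin ligase, read -2.18, -2.28 and -2.41 on the DDMB arrays, -2.33, -2.21 and -2.34 on the CDMB arrays and -2.09, -2.03 and -2.38 on the CDEB arrays, against -1.85, -2.14 and -2.11 on the VC_1 arrays, and -0.64, -0.66 and -0.90 on the DDEB arrays, against -0.27, -0.31 and -0.54 on the VC_2 arrays. Its levels were higher on every DDEB and VC_2 array than on every other array. Lot, slide, scan day and culture cannot be told apart between these sets of arrays. Against VC_2 the change with DDEB was -0.36 ± 0.115 (SE, adjusted p 0.16 in limma). Aurkb, the kinase of the chromosomal passenger complex, was well above background on 5 of 18 arrays and was not tested.

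Of the kinetochore and checkpoint genes Cdca8 had the lowest fitted change with DDEB. Cdca8, the borealin subunit of the passenger complex, read -5.90, -5.09 and -4.31 on the DDEB arrays, against -4.53, -3.27 and -3.77 on the VC_2 arrays, with 1 of 3 DDEB arrays well above background. For the other compounds it read -4.90, -4.30 and -4.50 on the DDMB arrays, -5.04, -5.15 and -4.88 on the CDMB arrays and -4.82, -4.54 and -5.38 on the CDEB arrays, against -5.09, -4.42 and -4.01 on the VC_1 arrays. The DDEB change was -1.24 ± 0.397 (SE, adjusted p 0.16 in limma), and DDEB replicate 3 lay above VC_2 replicate 1, so the groups overlapped. Bub1, a checkpoint kinase, lay below VC_1 with both CDMB and CDEB, at -2.31 to -2.08 and -2.35 to -2.28, against -2.08 to -1.25 in VC_1, so that CDMB and VC_1 nearly touched. Ttk, the checkpoint kinase Mps1, and Birc5, survivin, had changes of -0.64 to -0.33 with CDMB and CDEB, -0.19 to -0.05 without VC_1 replicate 3, and overlapped VC_1. Cenpf, a kinetochore protein, and Bub1b, the checkpoint protein BubR1, were well above background on 5 and 1 of 18 arrays.

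Spindle and cytokinesis genes were split. Kif20a, a kinesin of the midzone, read -4.24, -2.59 and -3.79 on the DDMB arrays, -3.62, -4.63 and -4.39 on the CDMB arrays and -3.94, -3.94 and -3.99 on the CDEB arrays, against -3.66, -3.29 and -1.87 on the VC_1 arrays, and -3.75, -3.36 and -1.95 on the DDEB arrays, against -3.76, -3.22 and -1.99 on the VC_2 arrays. It had changes of -1.27 ± 0.59 with CDMB and -1.01 ± 0.59 with CDEB (SE), or -0.73 ± 0.598 and -0.48 ± 0.598 without VC_1 replicate 3, with a pattern over arrays like that of Cdk1. Nusap1, a spindle microtubule protein, read -2.38, -2.11 and -2.60 on the DDMB arrays, -2.37, -2.72 and -2.60 on the CDMB arrays and -2.87, -2.88 and -2.70 on the CDEB arrays, against -2.74, -2.67 and -1.97 on the VC_1 arrays, and -2.40, -2 and -1.47 on the DDEB arrays, against -2.52, -2.49 and -1.76 on the VC_2 arrays. Its change was 0.30 with DDEB, where the groups overlapped. Tpx2, which activates Aurora A at the spindle, had -0.37 with DDMB and lay at -3.41 to -3.17, against -3.08 to -2.78 in VC_1, without overlap; with CDMB and CDEB it had -0.01 and 0.02. With DDEB it had -0.20 ± 0.193 (SE), and without DDEB replicate 3, the one array on another slide, -0.51 ± 0.111 (adjusted p 0.0406 in limma, 1.66% of all genes called). Kif11, the kinesin that pushes spindle poles apart, Prc1 and Gas2l3 had changes of -0.75 to -0.14 with CDMB and CDEB, or -0.70 to -0.09 without VC_1 replicate 3. Kif2c, a kinesin that shortens microtubules, was well above background on 1 of 18 arrays.

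The genes listed under the mitotic ubiquitin ligase, Cdca3 among them, held the lowest fitted change with CDMB and 2 of the 3 lowest with CDEB. Ube2c, its ubiquitin-conjugating enzyme, read -5.24, -2.94 and -4.35 on the DDMB arrays, -4.58, -5.97 and -4.97 on the CDMB arrays and -5.02, -5.32 and -4.75 on the CDEB arrays, against -3.62, -4.17 and -2.66 on the VC_1 arrays. On the other lot it read -4.58, -4.80 and -2.53 on the DDEB arrays, against -4.36, -4.31 and -2.70 on the VC_2 arrays. All CDMB and CDEB arrays were below all VC_1 arrays, and 1 array each of CDMB, CDEB and DDEB was not well above background. The changes were -1.69 ± 0.691 with CDMB and -1.55 ± 0.691 with CDEB (SE; adjusted p 0.334 and 0.358 in limma), and -1.28 ± 0.76 and -1.14 ± 0.76 without VC_1 replicate 3. Cdca3 read -4.48, -2.05 and -3.39 on the DDMB arrays, -3.04, -4.23 and -4.16 on the CDMB arrays and -3.80, -4.16 and -3.96 on the CDEB arrays, against -3.16, -2.80 and -1.21 on the VC_1 arrays, and -4.49, -3.53 and -1.23 on the DDEB arrays, against -3.29, -2.91 and -1.35 on the VC_2 arrays. Its changes were -1.42 ± 0.812 with CDMB and -1.58 ± 0.812 with CDEB (SE), and -0.83 ± 0.868 and -0.99 ± 0.868 without VC_1 replicate 3. Its promoter above holds 3 CCAAT words. Cdc20, an activator of the ligase, had changes of -0.14 to 0.18 in the 4 comparisons. Mki67, the Ki-67 protein that coats mitotic chromosomes and a usual mark of cycling cells, lay at -1.90, -0.86 and -1.57 on the DDMB arrays, -1.48, -1.58 and -1.51 on the CDMB arrays and -1.39, -1.66 and -1.45 on the CDEB arrays, against -1.31, -1.16 and -0.46 on the VC_1 arrays. CDMB and CDEB did not overlap VC_1 for Mki67, and the adjusted p was 0.492 and 0.513 in limma, for changes of -0.55 ± 0.344 and -0.52 ± 0.344 (SE), or -0.29 ± 0.365 and -0.26 ± 0.365 without VC_1 replicate 3.

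In the group listed as mitotic ubiquitin ligase, Cdca3 had -1.42 with CDMB, Ube2c had -1.55 with CDEB, and Cdc20 had -0.07 and -0.14. By role, the median change was widest in that group (3 members, -1.42 with CDMB and -1.55 with CDEB) and the G2 and M cyclins and kinases (9 members, -0.80 and -0.68). It was -0.27 and -0.30 for 6 licensing and fork genes, and 0.07 and 0.03 for 5 genes of G1 and S entry. With DDMB the same roles had -0.69, -0.39, -0.09 and -0.10, and with DDEB -0.18, -0.03, -0.06 and 0.08. Leaving out VC_1 replicate 3, the medians of these 4 roles were -0.83, -0.38, -0.11 and 0.02 with CDMB, -0.99, -0.29, -0.09 and 0.06 with CDEB, and -0.28, -0.03, 0.15 and 0.15 with DDMB, so the licensing and G1 medians of DDMB turned sign. These are descriptions of a few genes that share their arrays. Of 14 further probes for 11 members that passed the filter, the sign was that of the brightest probe for 10 with DDMB, 8 with DDEB, 11 with CDMB and 13 with CDEB. The opposite sign was found for Rrm1, Aurka, Tk1 and Mcm3 with DDMB, for Rrm1, Mki67, Aurka, Mcm4, Prc1 and Ccnb2 with DDEB, for Rrm1, Aurka and Mcm3 with CDMB, and for Aurka with CDEB.

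The other genes of the cycle were read from a second list, of which 75 passed the filter. None was called against its own control (0 of 75 for DDMB, DDEB, CDMB and CDEB, in limma). The list's medians were -0.01 with DDMB, -0.03 with DDEB, -0.14 with CDMB and -0.13 with CDEB. Of its 20 other mitotic genes 19 had a change below 0 with CDMB and 19 with CDEB, with 16 each for DDMB and DDEB. When VC_1 replicate 3 was left out the list's medians were 0.06 with DDMB, -0.03 with CDMB and -0.05 with CDEB, and of the 20 mitotic genes 9, 14 and 16 lay below 0. The lowest changes were those of Ect2, an exchange factor of cytokinesis, at -1.46 ± 0.795 with CDMB, -0.89 ± 0.795 with DDMB and -0.81 ± 0.795 with DDEB, and Spc25, a kinetochore subunit, at -1.08 ± 0.654 with CDEB (SE). Without VC_1 replicate 3 Ect2 had -0.91 ± 0.857 with CDMB and -0.35 ± 0.857 with DDMB, and Spc25 -0.49 ± 0.665 with CDEB. The probe of Kif23, a midzone kinesin, was well above background on no CDMB or CDEB array and on all 3 VC_1 arrays, so its fitted changes are no folds and are not given. With DDEB Kif23 had 0.42 ± 0.459. The lowest of the rest were Cdkn1c, a Cdk inhibitor, at -0.58 ± 0.221 with DDMB and Cdkn3, a phosphatase that acts on Cdks, at -0.41 ± 0.366 with DDEB.

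Cdkn1a, the p21 inhibitor of Cdk2, read 5.22, 4.48 and 4.73 on the DDMB arrays, 5.22, 5.32 and 5.42 on the CDMB arrays and 5.32, 5.38 and 5.38 on the CDEB arrays, against 5.06, 4.96 and 4.26 on the VC_1 arrays. On the other lot it read 5.31, 5.02 and 4.63 on the DDEB arrays, against 5.07, 4.99 and 4.28 on the VC_2 arrays. It was lowest on the same arrays on which the members were highest. Its changes of 0.56 ± 0.252 with CDMB and 0.60 ± 0.252 with CDEB (SE; adjusted p 0.369 and 0.336 in limma) did not pass, and without VC_1 replicate 3 they were 0.31 ± 0.248 and 0.35 ± 0.248. Cdkn2c, an inhibitor of Cdk4 and Cdk6, had 0.50 ± 0.194 with CDMB, and E2f7, a repressing E2F factor, 0.69 ± 0.376 with CDEB. The E2f7 probe was well above background on 2 CDEB arrays and on no VC_1 array, so its fitted change is no fold. Cdc25a, the phosphatase that frees Cdk2, came nearest to the threshold, at 0.34 ± 0.0765 with DDMB and 0.32 ± 0.0765 with DDEB (SE; adjusted p 0.0746 and 0.0707 in limma). Mcm10, a replication factor, had 0.60 ± 0.159 with DDMB.

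The 4 compounds were compared in 6 pairs at the one dose and time, and with DDEB the effects over the own controls were compared. For DDMB versus CDEB 2 members passed in limma (3.22% of all genes were called), and 4 had an unadjusted p under 0.05 (20.2% of all genes). Gas2l3, which links actin and microtubules at the midbody, read -4.09, -3.69 and -3.69 on the DDMB arrays, against -4.37, -5.14 and -4.37 on the CDEB arrays. The difference was 0.81 ± 0.19 (SE, adjusted p 0.0373 in limma), and it turned to -0.15 with normexp background correction, so it depends on the background correction of a dim probe. Tk1 read 1.29, 1.04 and 1.18 on the DDMB arrays, against 1.58, 1.56 and 1.53 on the CDEB arrays, without overlap. Its difference was -0.39 ± 0.0962 (SE, adjusted p 0.0447 in limma). Its second, dimmer probe read -1.48, -1.38 and -1.13 with DDMB, against -1.08, -1.1 and -1.20 with CDEB, and overlapped. With slide as a random block the differences were again 0.81 and -0.39 and the adjusted p was 1 in limma; slide and compound coincide for this pair, so their effects cannot be told apart. Leaving out DDMB replicate 2, DDMB replicate 3 or any one CDEB array took both calls away (adjusted p 0.0556 to 0.168 in limma).

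In the other 5 pairs no member was called (limma), and the intervals were wide. The share of all genes called was 0.705% for DDMB versus CDMB, 0.00927% for DDEB versus CDEB, and 0% for DDEB versus DDMB, DDEB versus CDMB and CDEB versus CDMB. With an unadjusted limma p under 0.05 there was 1 member for DDMB versus CDMB (16.5% of all genes), 1 for DDEB versus DDMB (5.79%) and 1 for CDEB versus CDMB (4.72%). There was none for DDEB versus CDEB (6.64%) or DDEB versus CDMB (5.8%). CDEB and CDMB lay on the same slide; their median difference over the members was -0.01 (range -0.61 to 0.26), with a median 95% interval of 0.562 to either side. DDMB lay above CDMB by a median of 0.21, with the same width of interval. The DDEB effect lay above those of DDMB, CDMB and CDEB by medians of 0.18, 0.27 and 0.36, with a median interval of 0.795 to either side. That width takes VC_1 and VC_2 arrays as independent, although those with the same number deviated together. From the second list, Cdkn2b, the p15 inhibitor of Cdk4, was lower in DDMB than in CDMB by 0.47 ± 0.0938 (log2, SE), and Bub3 was higher in DDMB than in CDEB.

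Between the DMSO groups of the 2 lots, VC_2 and VC_1, 1 member was called when all 18 arrays were fitted without pairing, and it was higher (21.7% of all genes were called, 12.7% higher and 9.02% lower). Ccnf was higher in VC_2 by 1.66 ± 0.115 (log2, SE, adjusted p 1.14e-06 in limma). With the replicate number as a block on the 6 DMSO arrays, 18 members were called, 4 higher and 14 lower (50% of all genes, 24.9% higher and 25% lower), among them Tpx2 at -0.36, Ccnb2 at -0.54, Prc1 at -0.57 and Plk1 at 0.27. Of the second list 6 genes were higher (E2f7, Cenpa, Pole, Rfc4, Ccnd3 and Tfdp1) and 3 lower (Btg1, Cdkn2b and Lin54) without pairing. The largest were E2f7 at 3.35 ± 0.376 and Cenpa, the centromeric histone, at 1.08 ± 0.102 (SE); E2f7 was not well above background on any VC_1 array, so its value is no fold. Lot, slide, scan day and culture cannot be told apart here.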

How the data were processed

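RNA of the cultures was hybridised to 18 one-colour arrays. Whether these stand for 18 separate cultures is not known, because same-numbered VC_1 and VC_2 arrays may carry the same RNA. The processed signal intensity of each spot is background-subtracted and detrended within the array, per the file headers, which name Agilent Feature Extraction 10.7.1.1 and build rn4. The authors' deposited tables hold linear signal values of the same arrays, in 2 tables, with no stated scaling. Deposited values above 1 (11409 to 11414 probes per array) match the processed signal times 1 constant per array. Dimmer values were not checked for this.

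From the deposited intensity values, log2 of the processed signal was taken minus the 75th percentile of each array (430 to 654 intensity units). On each array 61% to 64.3% of spots were well above background. A probe was kept when some group had it well above background on each of its 3 arrays, which left 25306 of 45163 with a value on all arrays. They gave 21574 genes (10938 with a symbol, the others by accession), each by its brightest probe. Of the members, 17 had more than 1 probe.

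All 18 arrays entered 1 limma fit (limma 3.58.1, R 4.3.3) with 6 group means and 12 residual degrees of freedom. P-values were adjusted over all genes by the Benjamini-Hochberg method. The fit was tested on simulated data. The 3 arrays per group limit the precision.

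The members and lists were chosen with earlier results of these data known. Values on single arrays are given for members called, for the 4 highest and 4 lowest changes per comparison, the 4 brightest and the 4 with the largest SD in VC_1. From the other list, called genes and the 2 highest and 2 lowest changes per comparison are named. Further members were named after their values were seen. One marker list is not reported here. Their chromosomes and sequences come from RefSeq.

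Same-numbered arrays of VC_2 and VC_1 deviated together from their group means (correlations 0.632, 0.467 and 0.807 over 21536 genes). The main fit did not pair them. For VC_2 versus VC_1 a separate fit of the DMSO arrays alone paired them, with the replicate number as a block. For compound and control arrays the numbers were not shown to pair. Same-numbered DDEB and VC_2 arrays correlated at 0.427, 0.094 and 0.485, but DDEB replicate 2 correlated more with VC_2 replicate 1, at 0.2. With VC_1 the same-number values were 0.555, -0.418 and 0.095 for DDMB. They were 0.018, 0.042 and 0.06 for CDMB and 0.198, -0.004 and 0.112 for CDEB. Alternatives were normexp correction on the median spot signal, quantile normalization, the deposited tables, no filter, all probes averaged, array weights, slide or replicate blocks, and each array left out.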

Additional observations from a re-analysis of the deposited data

Results flagged for a closer look

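In 5 results the test of a difference between compounds passed over all genes (limma, n = 3 per group). Gas2l3 was higher with DDMB than with CDEB by 0.81 on the log2 scale (adjusted p 0.0373 in limma), but with normexp background correction the difference turned to -0.15 (adjusted p 0.453 in limma). Tk1 differed by -0.39 (adjusted p 0.0447 in limma). From the second list, Cdkn2b differed by -0.47 between DDMB and CDMB (adjusted p 0.0362 in limma) and by -0.44 between DDMB and CDEB (adjusted p 0.0259 in limma). Bub3, a checkpoint protein, differed by 0.24 between DDMB and CDEB (adjusted p 0.0441 in limma). All 5 set arrays of one slide against arrays of another, so the effects of compound and of slide cannot be told apart.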

How the results depend on the processing

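The count of 0 members called over the own control held under every alternative but those named here. Array weights, which ran from 0.0758 to 27.3 and whose estimation did not converge, gave 24 members for DDMB, 14 for DDEB, 12 for CDMB and 19 for CDEB, where 16098, 8871, 5612 and 8549 of all genes were called, against 120, 213, 9 and 29 without weights. For DDEB over VC_2 the replicate block gave 1 (Ccnf, -0.36, adjusted p 0.0373 in limma), where 436 of 21574 genes were called. Leaving out 1 array gave 0 to 1, and without DDEB replicate 3 1.66% of all genes were called. The slide as a fixed block also gave 1 (Tpx2, -0.51). DDEB replicate 3 is the one array on its slide, so that block amounts to leaving it out and is no separate alternative. The replicate numbers are not shown to pair compounds with controls. For DDEB and VC_2 the correlations of deviations were 0.427, 0.094 and 0.485 at the same number, so a pairing there is not settled. The replicate block changed no other call over the own control. For VC_2 versus VC_1 the replicate block on the 6 DMSO arrays gave 18 members (50% of all genes called), against 1 (21.7%). For DDMB versus CDEB the count of 2 was 1 with quantile normalization, 1 with normexp and 0 with slide as a random block. It was 0 to 3 when 1 array was left out. For DDMB versus CDMB that range was 0 to 1 (Ccne2, -0.70, adjusted p 0.0424 in limma, without DDMB replicate 1). In the main fit 3.22% and 0.705% of all genes were called for these pairs. The share under their alternatives is not given, so these counts cannot be set against it.

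The median change of the members ran from -0.23 to 0.04 for DDMB, -0.38 to 0.15 for DDEB, -0.49 to -0.12 for CDMB and -0.55 to -0.16 for CDEB over all alternatives. For DDEB, Rrm2, Cdca3 and Cdk1 turned to 0.24, 0.13 and 0.29 without DDEB replicate 1 and to 0.03, 0.01 and 0.24 without VC_2 replicate 3. When 1 array was left out they ran from -1.54 to 0.24 for Rrm2, -1.49 to 0.13 for Cdca3 and -1.20 to 0.29 for Cdk1. Single members were followed through the alternatives only where they had the highest or lowest changes of a comparison. Of these values, 504 kept their direction and side of the threshold, 26 passed it under array weights and 6 turned. The other members are not covered by these counts. The counts of all genes called moved by over 1.5 times with normexp (74, 72, 2 and 8 for DDMB, DDEB, CDMB and CDEB), quantile normalization (331 for DDEB, 6 for CDMB, 17 for CDEB), no filter (49 for DDMB, 0 for CDMB, 6 for CDEB), slide as a random block (189 for DDMB, 0 for CDMB and CDEB) and the replicate block (436 for DDEB, 16 for CDMB). Without the filter the median of all genes lay at 0.067, 0.1, 0.108 and 0.105. The cause of these shifts was not tested. The level of the dimmest members lies near background, where the array limits what can be read.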
